A study of Mus musculus with 128 samples.

Results

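The genes described here are the phase II conjugation enzymes of mouse liver: glutathione S-transferases of the alpha, mu, pi, theta and kappa families (Gst), UDP-glucuronosyltransferases (Ugt) and cytosolic sulfotransferases (Sult). They were taken by name from the deposited count table, as the protein-coding rows whose symbols begin with Gsta, Gstm, Gstp, Gstt or Gstk, with Ugt1, Ugt2 or Ugt3, or with Sult, each followed by a number as family names are. The rule gave 56 of 35275 genes, of which 18 are Gst, 20 are Ugt and 18 are Sult, and it used no measured value. Of these, 45 had enough reads to be tested: 17 Gst, 19 Ugt and 9 Sult. The 11 members left out of the tests were Gstt4, Ugt2a1, Sult1c1, Sult2a1, Sult2a2, Sult2a3, Sult2a4, Sult2a5, Sult2a6, Sult3a1 and Sult6b1, with between 0 and 220 reads each over all libraries.

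Livers came from 8-week-old male mice of the BALB/c and C57BL6/J strains. All mice, controls included, were trained for 1 week to a schedule of fasting and feeding, fasted for 21 h, and were then either killed at 0 h or given chow (10% of calories from fat, 64.5% from carbohydrate) from 7 pm. Water was withheld from 4 pm, by the labels. Beside the chow the mice drank plain water, or a 20% solution of glucose, of sucrose or of fructose. Fed mice were killed after 3, 6 or 12 h. Each of the 26 groups is 1 strain, drink and time: 24 groups hold 5 libraries, and 12 h of glucose and 12 h of fructose in BALB/c hold 4 each. That gives 63 BALB/c and 65 C57BL6/J libraries. The fasted state (0 h) has 10 libraries, and feeding for 3, 6 and 12 h has 40, 40 and 38. Time since food was offered and time of day move together in this design and cannot be told apart. The labels do not say how the mice of a group relate to each other, so p-values measure the spread between these livers.

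Phase II enzymes join a polar group to a foreign compound, hormone, bile pigment or reactive lipid, which makes it easier to excrete. Gst enzymes use glutathione, Ugt enzymes of the membrane of the endoplasmic reticulum mostly use UDP-glucuronic acid, and Sult enzymes use the sulphate donor PAPS. In mouse liver many members differ between the sexes: Gstp1 is known as a male-predominant gene, and the Sult2a genes and Sult3a1 as female-predominant ones. Members of each class sit in clusters of related genes, and the Ugt1a members are first exons spliced to a shared set of last exons. In the coordinates of the deposited table (mm10), the mu-class genes lie between bases 107895821 and 108044894 of chromosome 3 and the Ugt1a genes between 88055388 and 88220002 of chromosome 1. The Ugt2 genes lie between 86889767 and 87490871 of chromosome 5, next to Sult1b1, Sult1d1 and Sult1e1, which end at 87591611. Sult5a1 lies at 123142847 to 123158315 of chromosome 8 and the Ugt3a pair between 9273319 and 9370955 of chromosome 15.

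Levels between genes are given as the authors' FPKM (read count divided by gene length and library size). Levels of 1 gene between libraries are given as CPM (counts scaled to library size with TMM factors). Total counts were 18541545 to 43118895 per library, with a median of 24131379. Differences are log2 fold changes with their standard errors from edgeR's quasi-likelihood test over all 16886 genes with enough reads, and a gene was called at a Benjamini-Hochberg adjusted p below 0.05. Hepatocyte markers (Alb, Apoa1, Ttr and 4 others) summed to 46309.9 to 130230.0 CPM, all 7 were read, and none was at 0 throughout. Several libraries stood apart. Replicate 1 of the BALB/c 0 h group was the lowest of all libraries for 14 of the 45 tested members. By 500 genes outside the members that vary with time, replicate 2 of the C57BL6/J 0 h group lay nearest to the 3 h livers and replicate 4 of BALB/c fructose at 6 h nearest to the 0 h livers. Markers of kidney summed to 941 CPM in replicate 1 of BALB/c water at 6 h and 1557 CPM in replicate 3 of BALB/c glucose at 6 h, against at most 8.99 CPM in any other library. The summed markers passed 50 CPM in 66 livers for skeletal muscle (up to 636 CPM), 39 for intestine (up to 78.4), 18 for pancreas (up to 1595), 4 for adrenal gland (up to 611) and none for stomach. Where a named call ended without a liver that stood apart by members, time or kidney markers, this is stated beside it.

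Glutathione transferases were the most abundant class per length, and in each class 4 genes held most of the level. Summed over members and averaged over all livers (mean ± SD), Gst reached 4939.6 ± 943 FPKM, Ugt 1222 ± 245 FPKM and Sult 352 ± 75.9 FPKM. The 4 most abundant members made up 86.0% of the Gst sum, 80.5% of the Ugt sum and 98.0% of the Sult sum. The Ugt sum includes the Ugt1a members, which share their last exons. If reads in shared exons were left out of the counts, the Ugt sums are too low and the 80.5% is too high, which was not tested. In BALB/c livers the sums were 5304 ± 969, 1158 ± 245 and 360.3 ± 75.4 FPKM for Gst, Ugt and Sult, against 4587 ± 774, 1284 ± 230.3 and 344 ± 76.0 FPKM in C57BL6/J livers (SD, n = 63 and 65). These sums overlap widely between strains.

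Gstp1, the pi-class transferase, was the most abundant member, with lowest, median and highest values of 879, 2514 and 4684 FPKM in BALB/c and 967, 2110.4 and 3799 FPKM in C57BL6/J. Next came the mu-class enzyme Gstm1, with 258, 968 and 1389 FPKM in BALB/c and 557, 977 and 1800.0 FPKM in C57BL6/J. Gsta3, the alpha-class enzyme that protects mice from aflatoxin, had 117, 666 and 925 FPKM in BALB/c and 385, 702 and 971 FPKM in C57BL6/J. Gstt1, a theta-class enzyme that acts on small halogenated compounds, had 58.5, 292 and 442 FPKM in BALB/c and 159, 251 and 353 FPKM in C57BL6/J. The other Gst members averaged between 0.0518 FPKM (Gstt4) and 142 FPKM (Gstk1, the kappa enzyme of mitochondria and peroxisomes).

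Among the Ugt genes the order was Ugt2b5, Ugt2b36, Ugt2b1 and Ugt2a3, all of the clusters that glucuronidate steroids and bile acids among other substrates. Ugt2b5 had 146, 367 and 595 FPKM in BALB/c and 252, 435 and 629 FPKM in C57BL6/J, and Ugt2b36 had 137, 304 and 440.4 FPKM in BALB/c and 199, 301 and 392 FPKM in C57BL6/J. Ugt2b1 had 52.8, 182 and 289 FPKM in BALB/c and 83.5, 134 and 223 FPKM in C57BL6/J, and Ugt2a3 had 46.5, 98.5 and 148 FPKM in BALB/c and 76.1, 125 and 229.7 FPKM in C57BL6/J. Ugt2a3 (114 FPKM on average) and the fifth, Ugt2b34 (99.4 FPKM), lay close together, and by CPM, which is not divided by gene length, Ugt2b34 came before Ugt2a3. Ugt1a1, the bilirubin enzyme, averaged 5.65 ± 3.09 FPKM (SD over all livers), and its shared last exons make the Ugt1a values uncertain. Only 385 of the 2224 exon bases of Ugt1a1 are its own, while FPKM divides by the full listed length. How reads in shared exons were counted is not given here. If they were left out, the FPKM of the Ugt1a members are too low, which was not tested.

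Sult1a1, the phenol sulfotransferase, was the main sulfotransferase, with 156, 254 and 370.3 FPKM in BALB/c and 139, 248 and 408 FPKM in C57BL6/J. Sult1d1, which sulphates catecholamines in mice, followed with 28.3, 82.9 and 299 FPKM in BALB/c and 22.3, 67.2 and 151 FPKM in C57BL6/J. Sult1b1, known for thyroid hormone sulphation, had 2.24, 4.43 and 7.72 FPKM in BALB/c and 3.71, 7.34 and 15.9 FPKM in C57BL6/J. Sult1c2 had 0.887, 8.57 and 15.3 FPKM in BALB/c and 0.736, 1.64 and 6.40 FPKM in C57BL6/J, so its place in the order differed by strain: above Sult1b1 in BALB/c by median and below it in C57BL6/J. Sult1e1, the oestrogen sulfotransferase, averaged 0.386 ± 0.830 FPKM (SD over all livers). The female-predominant Sult2a1 had 107 reads and Sult3a1 had 46 reads over all libraries.

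**Figure D1:**
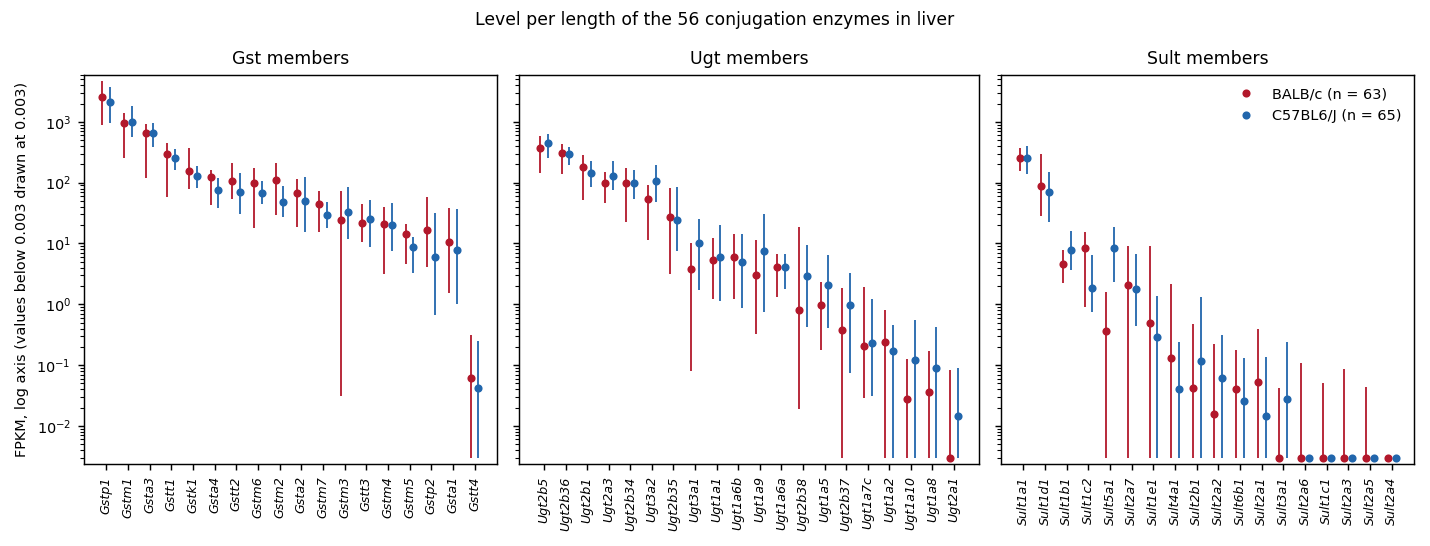
Mean FPKM of each of the 56 members (log axis) in BALB/c and C57BL6/J livers, by class, with the lines spanning the libraries. Gstp1 stands highest of all members, and the members left of each panel hold most of the class sum.

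Strain was asked first, as the mean of the 13 differences between BALB/c and C57BL6/J at the same drink and time. BALB/c livers held more of most Gst mRNAs and less of most Ugt mRNAs. The test called 11 higher and 2 lower of 17 Gst members, 1 higher and 11 lower of 19 Ugt members and 3 higher and 3 lower of 9 Sult members. That is 31 of 45 members, where 55.3% of all genes tested were called: 28.7% higher and 26.5% lower. The median log2 fold change was 0.36 for Gst, -0.36 for Ugt and 0.11 for Sult, beside 0.01 for all genes tested. Of the 31, 14 differed at least 2-fold, that is 14 of 45 members, where 9.40% of all genes tested were called with such a difference. In bulk liver, fewer cells of a type and less RNA per cell cannot be told apart. Reads of both strains were counted on a build that comes from C57BL6/J. Whether sequence differences of BALB/c lowered its counts, or moved reads between related genes, was not tested. This limit holds for every strain difference given below.

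**Figure D2:**
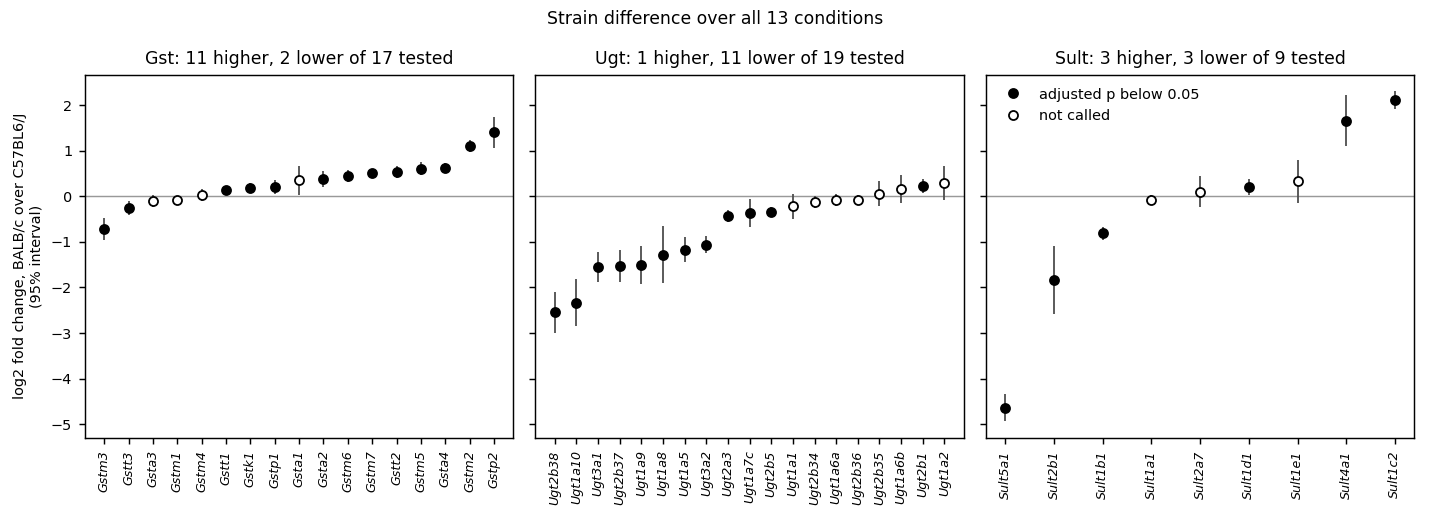
log2 fold change of each tested member, BALB/c over C57BL6/J, over all 13 conditions, with 95% intervals and called members marked. Most Gst points lie above 0 and most Ugt points below it, and Sult5a1 lies lowest, at -4.64.

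Of the transferases that use glutathione, Gstp2, the close copy of Gstp1, had the largest log2 fold change. It had 3.09, 9.91 and 45.9 CPM (lowest, median and highest) in the 63 BALB/c livers, against 0.581, 3.38 and 29.7 CPM in the 65 C57BL6/J livers. The ranges overlapped, although its mean was higher in BALB/c in all 13 conditions. The fold change on the log2 scale was 1.41 ± 0.17 (SE; adjusted p = 4.03e-12), and 57 of 63 BALB/c livers lay above the C57BL6/J mean of their own condition. Gstp2 shares 46.9% of its 100-base windows with Gstp1, so the split of reads between the pair is uncertain. Gstp1 itself differed by 0.21 ± 0.08 (SE; adjusted p = 0.0196).

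Gstm2, a mu-class enzyme, was the next highest, with 30.7, 110.1 and 211 CPM (lowest, median and highest) in the 63 BALB/c livers, against 31.5, 51.0 and 98.0 CPM in the 65 C57BL6/J livers. In 11 of 13 conditions every BALB/c library lay above every C57BL6/J library. On the log2 scale the difference was 1.11 ± 0.06 (SE; adjusted p = 1.98e-32), with 62 of 63 livers on that side. Gsta4, the alpha-class enzyme that clears the lipid peroxidation product 4-hydroxynonenal, had 40.9, 114 and 164 CPM (lowest, median and highest) in the 63 BALB/c livers, against 34.3, 74.3 and 109.9 CPM in the 65 C57BL6/J livers. Its groups did not overlap in 9 of 13 conditions, and the log2 fold change was 0.63 ± 0.05 (SE; adjusted p = 6.93e-21). Gstm5, Gstt2, Gstm7, Gstm6 and Gsta2 were also higher in BALB/c, by 0.61, 0.53, 0.51, 0.45 and 0.39 on the log2 scale. Gstk1 and Gstt1 differed by 0.19 and 0.13, and without the 34 libraries with a suffix in their names Gstt1 differed by 0.12 (adjusted p = 0.164). Its call held in 11 of 17 alternatives and ended without the 2 livers nearer to another time.

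The 2 Gst members lower in BALB/c were Gstm3 and Gstt3. Gstm3, a neighbour of Gstm2 in the mu cluster of chromosome 3, had 0.0404, 26.6 and 90.2 CPM (lowest, median and highest) in the 63 BALB/c livers, against 16.5, 38.8 and 112 CPM in the 65 C57BL6/J livers. The ranges overlapped, and the groups stood clear of each other in 1 of 13 conditions. The fitted log2 fold change was -0.72 ± 0.12 (SE; adjusted p = 2.52e-07), with 50 of 63 livers on that side. Gstt3, with 19.9, 38.1 and 77.9 CPM (lowest, median and highest) in the 63 BALB/c livers, against 17.2, 45.2 and 97.3 CPM in the 65 C57BL6/J livers, differed by -0.25 ± 0.08 (SE; adjusted p = 0.0029). Another gene, Gm20441, overlaps 13.6% of the exon bases of Gstt3, so its count is uncertain.

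Of the 12 Ugt members called, only Ugt2b1 was higher in BALB/c, with 127.6, 455 and 732 CPM (lowest, median and highest) in the 63 BALB/c livers, against 206, 369.5 and 597 CPM in the 65 C57BL6/J livers. As a log2 fold change this was 0.23 ± 0.08 (SE; adjusted p = 0.00634). The most abundant member, Ugt2b5, was lower in BALB/c, with 338, 638 and 1141 CPM (lowest, median and highest) in the 63 BALB/c livers, against 477, 849 and 1247 CPM in the 65 C57BL6/J livers. Both pairs of ranges overlapped. Ugt2b5 differed by -0.34 ± 0.06 (SE; adjusted p = 1.89e-07), with 53 of 63 livers on that side.

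The largest Ugt difference was in Ugt2b38, in the same cluster, with 0.0347, 0.618 and 32.3 CPM (lowest, median and highest) in the 63 BALB/c livers, against 0.786, 4.70 and 17.0 CPM in the 65 C57BL6/J livers. BALB/c libraries lay below all C57BL6/J libraries in 9 of 13 conditions. The 2 highest BALB/c values, 32.3 and 14.6 CPM, were in the livers with kidney markers. In the test the log2 fold change was -2.55 ± 0.23 (SE; adjusted p = 2.33e-18), and -2.96 (adjusted p = 4.07e-27) without those 2 livers. Ugt2b37, with 0, 0.563 and 3.23 CPM (lowest, median and highest) in the 63 BALB/c livers, against 0.141, 1.52 and 5.79 CPM in the 65 C57BL6/J livers, differed by -1.52 ± 0.18 (SE; adjusted p = 9.22e-13). Ugt2b38 shares 24.2% of its 100-base windows with other genes, mostly Ugt2b5, so its count is uncertain.

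The upstream sequences of Ugt2b5, Ugt2b37 and Ugt2b38 are shown because these 3 genes of the Ugt2 cluster were all lower in BALB/c and hold a long shared run. They are the 250 bases before the RefSeq start (GRCm38.p6) on the minus strand of chromosome 5, at chr5:87140341-87140590, chr5:87254789-87255038 and chr5:87424204-87424453. Capitals mark the longest run of bases, 62, that all 3 hold, and the order is 5′ to 3′. The build does not come from BALB/c, and the BALB/c sequences were not examined.
Ugt2b5: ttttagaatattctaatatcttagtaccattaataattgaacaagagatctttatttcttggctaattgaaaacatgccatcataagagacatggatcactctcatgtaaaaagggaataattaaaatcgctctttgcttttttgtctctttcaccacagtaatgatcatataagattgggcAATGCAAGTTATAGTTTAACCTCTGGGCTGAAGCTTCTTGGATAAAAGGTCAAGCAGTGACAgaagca
Ugt2b37: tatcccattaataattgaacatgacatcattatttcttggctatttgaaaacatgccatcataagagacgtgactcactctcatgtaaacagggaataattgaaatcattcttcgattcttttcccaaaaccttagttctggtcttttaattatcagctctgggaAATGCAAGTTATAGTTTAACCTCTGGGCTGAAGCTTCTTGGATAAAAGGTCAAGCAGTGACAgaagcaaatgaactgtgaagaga
Ugt2b38: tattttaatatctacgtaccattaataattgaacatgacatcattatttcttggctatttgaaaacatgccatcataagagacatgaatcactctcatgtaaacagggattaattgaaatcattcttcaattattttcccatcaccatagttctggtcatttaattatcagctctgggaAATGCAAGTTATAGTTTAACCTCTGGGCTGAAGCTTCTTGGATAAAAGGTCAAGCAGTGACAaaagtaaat
Aligned end to end, Ugt2b37 and Ugt2b38 were identical in 85.2% of columns, Ugt2b5 and Ugt2b38 in 81.5%, and Ugt2b5 and Ugt2b37 in 73.0%. The run ends 7, 24 and 10 bases before the RefSeq start in Ugt2b5, Ugt2b37 and Ugt2b38. The deposited table starts Ugt2b37, on the minus strand, at base 87254804. The last bases of its stretch, after the run, are thus inside the gene as drawn there. The mRNA levels of these genes were far apart: their means over all livers were 405, 0.675 and 1.88 FPKM, in the same order.

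Both Ugt3a genes were lower in BALB/c. In humans UGT3A1 uses UDP-N-acetylglucosamine and UGT3A2 uses UDP-glucose and UDP-xylose in place of UDP-glucuronic acid. Ugt3a2 had 21.8, 123.2 and 203 CPM (lowest, median and highest) in the 63 BALB/c livers, against 98.2, 242 and 496 CPM in the 65 C57BL6/J livers. BALB/c libraries lay below all C57BL6/J libraries in 5 of 13 conditions, and 63 of 63 lay below the matched mean. The fold change on the log2 scale was -1.06 ± 0.09 (SE; adjusted p = 3.55e-19). Ugt3a1 had 0.146, 7.18 and 24.0 CPM (lowest, median and highest) in the 63 BALB/c livers, against 3.92, 19.4 and 61.4 CPM in the 65 C57BL6/J livers, and differed by -1.55 ± 0.17 (SE; adjusted p = 4.7e-14). The ranges of Ugt3a1 overlapped, with no overlap in 3 of 13 conditions.

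In the Ugt1a locus 5 of 9 tested members were lower in BALB/c and none higher. Ugt1a9 had 0.723, 4.62 and 24.6 CPM (lowest, median and highest) in the 63 BALB/c livers, against 1.54, 14.5 and 68.6 CPM in the 65 C57BL6/J livers, with overlapping ranges. It differed by -1.51 ± 0.21 (SE; adjusted p = 7.36e-10), with 60 of 63 livers on that side. Ugt1a10 had 0, 0.0376 and 0.265 CPM (lowest, median and highest) in the 63 BALB/c livers, against 0, 0.220 and 1.32 CPM in the 65 C57BL6/J livers, with 28 BALB/c and 2 C57BL6/J livers at 0. It differed by -2.33 ± 0.26 (SE; adjusted p = 6.98e-14). Ugt1a8, Ugt1a5 and Ugt1a7c differed by -1.28, -1.17 and -0.36, the call of Ugt1a7c holding in 12 of 17 alternatives. Ugt1a members share between 50.3% and 82.7% of their exon bases with each other, so reads in the shared exons cannot be given to 1 of them and each value is uncertain. Ugt1a1 itself differed by -0.22 ± 0.14 (SE; adjusted p = 0.18) and was not called.

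The upstream sequences of Ugt1a9 and Ugt1a10 are shown because they belong to 2 first exons of 1 locus that were lower in BALB/c. They are the 250 bases before the RefSeq starts (GRCm38.p6), on the plus strand at chr1:88070529-88070778 and chr1:88055161-88055410, 5′ to 3′. Capitals mark their longest shared run, of 32 bases. Here too the build does not come from BALB/c, and the BALB/c sequences were not examined.
Ugt1a9: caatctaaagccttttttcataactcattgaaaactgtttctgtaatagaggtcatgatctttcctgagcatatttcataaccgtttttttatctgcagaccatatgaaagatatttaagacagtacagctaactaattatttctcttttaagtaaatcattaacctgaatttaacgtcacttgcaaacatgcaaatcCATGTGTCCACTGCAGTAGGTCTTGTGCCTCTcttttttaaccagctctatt
Ugt1a10: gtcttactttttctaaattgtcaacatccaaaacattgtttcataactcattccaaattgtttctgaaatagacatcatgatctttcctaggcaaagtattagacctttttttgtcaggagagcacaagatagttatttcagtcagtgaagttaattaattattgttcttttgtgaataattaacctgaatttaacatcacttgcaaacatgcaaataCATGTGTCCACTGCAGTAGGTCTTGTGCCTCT
The pair was identical in 69.2% of aligned columns. The shared run ends 21 bases before the RefSeq start in Ugt1a9 and 1 base before it in Ugt1a10. The deposited table starts Ugt1a10 at base 88055388, which lies within this run. The last bases of the Ugt1a10 stretch are thus inside the gene as drawn there.

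Sulfotransferases held the largest strain difference. Sult5a1 had 0, 0.319 and 2.09 CPM (lowest, median and highest) in the 63 BALB/c livers, against 2.78, 9.03 and 23.2 CPM in the 65 C57BL6/J livers. All 63 BALB/c livers lay below all 65 C57BL6/J livers. On the log2 scale the difference was -4.64 ± 0.15 (SE; adjusted p = 2.09e-53). Sult1c2 went the other way, with 1.62, 15.3 and 29.5 CPM (lowest, median and highest) in the 63 BALB/c livers, against 1.43, 3.16 and 10.3 CPM in the 65 C57BL6/J livers. In 11 of 13 conditions every BALB/c library lay above every C57BL6/J library, and the lowest BALB/c liver was replicate 1 of 0 h. Sult1c2 differed by 2.12 ± 0.10 (SE; adjusted p = 1.59e-38).

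Sult1b1 had 5.22, 11.4 and 20.3 CPM (lowest, median and highest) in the 63 BALB/c livers, against 9.52, 19.6 and 45.7 CPM in the 65 C57BL6/J livers. The groups did not overlap in 5 of 13 conditions, BALB/c being lower. It differed by -0.81 ± 0.07 (SE; adjusted p = 1.97e-18), with 62 of 63 livers on that side. Sult1d1 differed by 0.20 ± 0.09 (SE; adjusted p = 0.0472), and by 0.22 (adjusted p = 0.0677) without the libraries with a name suffix and 0.18 (adjusted p = 0.0807) without replicate 1 of BALB/c at 0 h. Its call held in 7 of 17 alternatives. Sult4a1 and Sult2b1, both under 1 CPM on average, differed by 1.67 ± 0.28 and -1.83 ± 0.37 (SE). Sult4a1 was at 0 in 2 BALB/c and 21 C57BL6/J livers, and Sult2b1 in 41 BALB/c and 14 C57BL6/J livers.

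**Figure D3:**
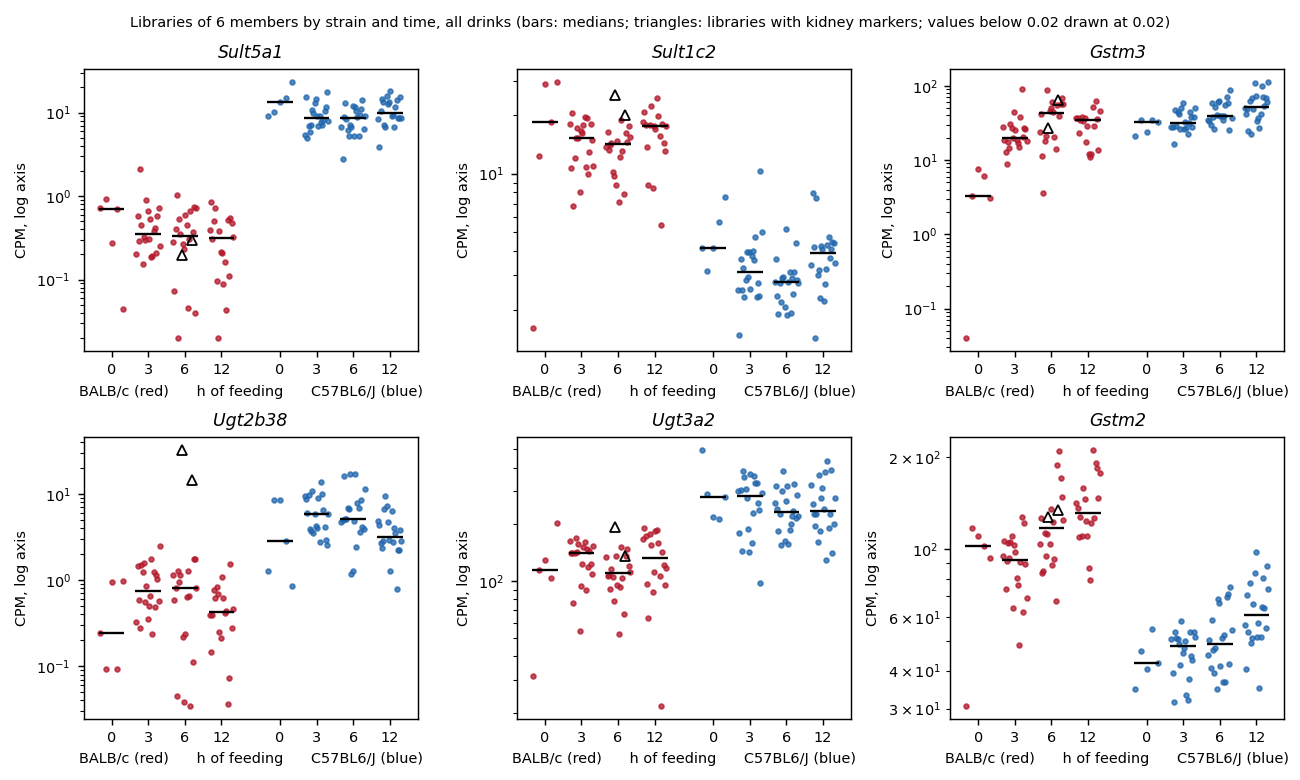
CPM (log axis) of Sult5a1, Sult1c2, Gstm3, Ugt2b38, Ugt3a2 and Gstm2 in every library, BALB/c left of C57BL6/J, by hours of feeding and over all drinks, with bars at the medians. Sult5a1 separates the strains at every time, Gstm3 lies lowest in BALB/c at 0 h, and the triangles (livers with kidney markers) stand above the other BALB/c livers for Ugt2b38.

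Fasted livers alone (0 h, 5 of each strain) gave 3 higher and 1 lower of 17 Gst members, 0 higher and 7 lower of 19 Ugt members and 2 higher and 2 lower of 9 Sult members, in sum 15 of 45 members, where 16.3% of all genes tested were called, 8.63% higher and 7.67% lower. A fit on these 10 livers alone called 6, and the share of all genes called in that fit is not given here. Gstm3 was the Gst member furthest from 0. It had 0.0404, 3.33, 7.60, 6.14 and 3.07 CPM in the BALB/c group, against 20.8, 34.3, 24.1, 34.5 and 33.1 CPM in the C57BL6/J group. Every fasted BALB/c liver was below every fasted C57BL6/J liver. The fitted log2 fold change was -2.87 ± 0.48 (SE; adjusted p = 1.31e-06), and -2.54 (adjusted p = 2e-05) without replicate 1 of BALB/c.

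Sult5a1 had 0.727, 0.925, 0.271, 0.692 and 0.0439 CPM in the BALB/c group, against 9.17, 10.1, 13.4, 14.9 and 23.2 CPM in the C57BL6/J group in the fasted livers. It differed by -4.72 ± 0.52 (SE; adjusted p = 6.26e-13), with no overlap. Sult1c2 had 1.62, 12.4, 29.0, 18.5 and 29.5 CPM in the BALB/c group, against 4.13, 3.16, 4.15, 5.65 and 7.59 CPM in the C57BL6/J group. Replicate 1 of BALB/c lay below every C57BL6/J liver and the other 4 above every one, and the log2 fold change was 1.89 ± 0.35 (SE; adjusted p = 1.46e-05), and 2.19 (adjusted p = 6.73e-08) without that liver. Gstm2 had 30.7, 117, 110.5, 103 and 93.6 CPM in the BALB/c group, against 34.9, 46.4, 40.5, 54.7 and 42.5 CPM in the C57BL6/J group, again with replicate 1 low, and differed by 1.05 ± 0.22 (SE; adjusted p = 0.000149), and by 1.28 (adjusted p = 2e-06) without it. The Ugt members called at 0 h were Ugt1a10, Ugt2b38, Ugt3a1, Ugt1a2, Ugt1a5, Ugt3a2 and Ugt2a3, with log2 fold changes between -4.07 and -0.65. Without replicate 1 of BALB/c, Ugt1a2 gave -1.86 (adjusted p = 0.107) and Ugt2a3 -0.55 (adjusted p = 0.151), and their calls held in 8 of 16 and 8 of 17 alternatives. Ugt2b38 gave -2.66 (adjusted p = 0.0514) without both 0 h livers that stood apart. The other called members were Gstm5, Gsta4, Sult1b1 and Sult4a1.

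Feeding was asked next, in mice that drank water, as the mean over both strains of each later time minus 0 h. Gst mRNAs, mostly those of the mu class, were higher after 6 and 12 h of feeding, while few Ugt or Sult mRNAs were called. At 3 h the test called 2 members higher and 1 lower, in sum 3 of 45, where 25.4% of all genes tested were called. At 6 h it called 9 higher and 0 lower of 17 Gst members, 1 higher and 0 lower of 19 Ugt members and 1 higher and 2 lower of 9 Sult members. Of all genes tested 28.8% were called at 6 h, 13.9% higher and 14.9% lower. At 12 h it called 6 higher and 1 lower of 17 Gst members, 0 higher and 1 lower of 19 Ugt members and 0 higher and 2 lower of 9 Sult members, where 17.6% of all genes tested were called, 8.31% higher and 9.30% lower. The 13 calls at 6 h became 7 in a fit on the water livers at 0 and 6 h alone, and 6 without replicate 1 of every group. The shares of all genes called in these fits are not given here.

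The class medians of the log2 fold change at 6 h were 0.42 for Gst, -0.07 for Ugt and -0.31 for Sult, beside 0.00 for all genes tested. Of the 7 mu-class members, 5 were called higher at 6 h and 5 at 12 h, and none lower. All 3 comparisons use the same 0 h livers. Summed over the class and in order of time (0, 3, 6 and 12 h), Gst reached 4274 ± 1384, 4815 ± 589, 5277 ± 1136 and 5151 ± 1144 FPKM (SD, n = 10 each). These sums overlap between times. Pericentral markers (Glul, Cyp2e1 and 5 others, all read) summed to 6351, 7550.4 and 9199.7 CPM (lowest, median and highest) at 6 h, against 8532, 12819 and 15228 CPM at 0 h, and their part in the results was not tested.

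Gstm3 had the largest Gst log2 fold change at each time. It had 64.9, 39.2, 56.2, 68.7 and 56.9 CPM at 6 h, against 0.0404, 3.33, 7.60, 6.14 and 3.07 CPM at 0 h, in BALB/c livers. It had 71.2, 59.2, 25.7, 88.5 and 36.4 CPM at 6 h, against 20.8, 34.3, 24.1, 34.5 and 33.1 CPM at 0 h, in C57BL6/J livers. The BALB/c groups did not overlap, and the C57BL6/J groups did. At 3 h Gstm3 had 90.2, 20.4, 26.8, 26.4 and 18.2 CPM in BALB/c and 44.1, 37.9, 28.2, 38.0 and 49.97 CPM in C57BL6/J. At 12 h it had 28.4, 61.8, 35.8, 13.8 and 46.3 CPM in BALB/c and 71.2, 53.3, 67.5, 60.1 and 112 CPM in C57BL6/J, with no overlap with 0 h in either strain. Its log2 fold change over both strains was 1.81 ± 0.32 (SE; adjusted p = 4.42e-06) at 3 h, 2.38 ± 0.33 (SE; adjusted p = 3.71e-09) at 6 h and 2.26 ± 0.33 (SE; adjusted p = 3.88e-08) at 12 h. Without replicate 1 of the BALB/c 0 h group the values were 1.64, 2.22 and 2.10, all still called. Gstm3 shares 13.8% of its 100-base windows with other genes.

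The size of this difference itself differed between strains. In BALB/c the log2 fold change of Gstm3 was 3.18 ± 0.48, 3.83 ± 0.50 and 3.21 ± 0.49 (SE) at 3, 6 and 12 h, and in C57BL6/J it was 0.43 ± 0.44, 0.94 ± 0.44 and 1.31 ± 0.44. A joint test of the strain differences over the 3 times called Gstm3 alone (adjusted p = 0.017), 1 of 45 members, where 0.634% of all genes tested were called. The call ended without replicate 1 of the BALB/c 0 h group (adjusted p = 0.0665), and its adjusted p lay between 0.0114 and 0.210 over the alternatives. On water at 12 h the strains' Gstm3 values overlapped.

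Gstm7, another mu-class gene, had 67.7, 84.3, 82.9, 76.1 and 62.6 CPM at 6 h, against 21.1, 43.6, 55.8, 51.0 and 49.3 CPM at 0 h, in BALB/c livers. It had 53.2, 52.2, 44.7, 52.6 and 43.8 CPM at 6 h, against 42.1, 34.2, 36.0, 32.4 and 27.6 CPM at 0 h, in C57BL6/J livers. In both strains every liver at 6 h lay above every liver at 0 h. As a log2 fold change this was 0.64 ± 0.11 (SE; adjusted p = 9.46e-07) at 6 h and 0.74 ± 0.11 (SE; adjusted p = 5.16e-08) at 12 h. Gstm2 had 127, 191, 184, 147 and 178 CPM at 12 h, against 30.7, 117, 110.5, 103 and 93.6 CPM at 0 h, in BALB/c livers. In C57BL6/J livers it had 80.4, 64.3, 55.1, 88.2 and 73.9 CPM at 12 h, against 34.9, 46.4, 40.5, 54.7 and 42.5 CPM at 0 h. Neither strain's groups overlapped. Gstm2 rose by 0.65 ± 0.16 (SE; adjusted p = 0.000521) at 6 h and 0.79 ± 0.16 (SE; adjusted p = 5.06e-05) at 12 h.

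Gstm4 had 36.7, 63.2, 60.6, 37.5 and 64.8 CPM at 12 h, against 5.21, 23.6, 34.5, 32.6 and 23.1 CPM at 0 h, in BALB/c livers. It had 52.4, 40.04, 42.1, 53.5 and 45.8 CPM at 12 h, against 19.4, 26.3, 31.5, 33.3 and 37.2 CPM at 0 h, in C57BL6/J livers. Again no groups overlapped within a strain. In the test the log2 fold change was 0.54 ± 0.16 (SE; adjusted p = 0.00652) at 6 h and 0.90 ± 0.16 (SE; adjusted p = 8.67e-06) at 12 h. No test set 12 h against 6 h. Gstm1, the most abundant mu-class enzyme, was called at 12 h only, with 0.38 ± 0.13 (SE; adjusted p = 0.0308). Without replicate 1 of BALB/c at 0 h it gave 0.27 (adjusted p = 0.113), and its call held in 10 of 17 alternatives. Gstm6 rose by 0.44 ± 0.16 (SE; adjusted p = 0.029) at 6 h, gave 0.31 (adjusted p = 0.108) without that liver, and held its call in 7 of 17 alternatives. Gstm5 was called at neither time (0.33 ± 0.17 at 6 h and -0.01 ± 0.17 at 12 h).

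Of the alpha class, Gsta3 had 2114, 2508, 2398, 2504 and 2089.8 CPM at 6 h, against 324, 1389.6, 2085, 1646 and 1936 CPM at 0 h, in BALB/c livers. It had 1975, 2861, 1768, 2924 and 2254 CPM at 6 h, against 2066, 2083, 1495, 1681 and 1883 CPM at 0 h, in C57BL6/J livers. Replicate 1 of BALB/c at 0 h was the lowest by far, the BALB/c groups did not overlap and the C57BL6/J groups did. Gsta3 rose by 0.50 ± 0.16 (SE; adjusted p = 0.00947), and 0.38 (adjusted p = 0.0393) without that liver. Gsta1 rose by 1.02 ± 0.41 (SE; adjusted p = 0.0488) at 6 h and 1.20 ± 0.41 (SE; adjusted p = 0.0275) at 12 h. The 6 h call of Gsta1 ended without replicate 1 of BALB/c at 0 h (0.98, adjusted p = 0.0784) and held in 7 of 17 alternatives. At 12 h the call held in 11 of 17 alternatives, and Gsta1 gave 1.10 (adjusted p = 0.0648) without both 0 h livers that stood apart. Gsta1 shares 80.6% of its 100-base windows with other genes and is uncertain. Gsta4 rose by 0.45 ± 0.13 (SE; adjusted p = 0.00488) at 6 h. Gstt1 rose by 0.42 ± 0.14 (SE; adjusted p = 0.012) at 6 h, and gave 0.29 (adjusted p = 0.0505) without the same BALB/c liver.

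The only Gst member called lower on water was Gstt2 at 12 h, a theta-class enzyme. It had 199, 111, 118, 125 and 151 CPM at 12 h, against 119, 221, 244, 320.5 and 169.5 CPM at 0 h, in BALB/c livers. It had 76.5, 45.8, 89.2, 97.7 and 62.1 CPM at 12 h, against 70.8, 95.1, 148, 211 and 169.6 CPM at 0 h, in C57BL6/J livers. Values overlapped in both strains, and 10 of 10 livers at 12 h lay below their strain's mean at 0 h. The fold change on the log2 scale was -0.76 ± 0.17 (SE; adjusted p = 0.000309). The most abundant member, Gstp1, was called at none of the 3 times, with log2 fold changes of 0.05 ± 0.20, 0.16 ± 0.20 and 0.01 ± 0.20 (SE) at 3, 6 and 12 h.

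The upstream sequence of Gsta3 is shown because the gene rose after 6 h on water and the sequence holds the core of the antioxidant response element, TGACNNNGC, the motif of the oxidative-stress factor NRF2. It is the 250 bases before the RefSeq start (GRCm38.p6), at chr1:21240335-21240584 on the plus strand, 5′ to 3′ along the gene, with the motif in capitals.
Gsta3: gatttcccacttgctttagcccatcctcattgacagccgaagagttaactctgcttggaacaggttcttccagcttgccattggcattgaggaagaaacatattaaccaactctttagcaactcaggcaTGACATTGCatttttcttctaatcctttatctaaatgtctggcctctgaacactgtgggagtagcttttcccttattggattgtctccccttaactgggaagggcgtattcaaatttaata
The motif lies 121 to 113 bases before the start of Gsta3. In windows of 250 bases before to 50 after a start, on both strands, it was found in 3 of 22 Gst promoters (those of Gsta3, Gstm5 and Gstm7), 0 of 18 Ugt and 0 of 16 Sult promoters, or 13.6% of the Gst ones beside 12.39% of all 32851 promoters in the table. The Gstm7 match lies by a RefSeq start inside the gene as the deposited table draws it, and its sequence is not shown. Of the 3, Gstm5 was not called on water. TTCNNNGAA, the core letters of STAT5 sites, was found in Gsta1, Gstm6, Ugt1a6a and Sult3a1 and in 8.298% of all promoters. The D-box (TTATGTAA or TTACATAA) was found in Ugt2b1 alone of the members and in 0.9376% of all promoters, and the E-box CACGTG in no member and 7.15% of all promoters. A match is a description of letters.

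Few Ugt genes were called on water. Ugt2a3 was called lower at 12 h. It had 80.0, 209.8, 211, 160.2 and 162 CPM at 12 h, against 174, 221, 248, 243 and 334 CPM at 0 h, in BALB/c livers. It had 225, 279, 207, 209.9 and 305 CPM at 12 h, against 534, 416, 261, 329 and 372 CPM at 0 h, in C57BL6/J livers. The ranges overlapped in both strains, and 10 of 10 livers at 12 h lay below their strain's mean at 0 h. On the log2 scale the difference was -0.60 ± 0.17 (SE; adjusted p = 0.00485), and -0.65 (adjusted p = 0.0026) without replicate 1 of BALB/c at 0 h. The call held in 16 of 17 alternatives and ended without replicate 1 of every group (adjusted p = 0.0722 by edgeR). The most abundant, Ugt2b5, had log2 fold changes of -0.22 ± 0.15, -0.23 ± 0.15 and -0.25 ± 0.15 (SE) at 3, 6 and 12 h and was not called.

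Ugt2b38 was called higher at 6 h. It had 14.6, 0.113, 1.76, 1.76 and 0.804 CPM at 6 h, against 0.242, 0.0925, 0.950, 0.0923 and 0.965 CPM at 0 h, in BALB/c livers. It had 3.65, 8.42, 4.09, 3.89 and 11.4 CPM at 6 h, against 1.27, 8.43, 8.38, 2.85 and 0.843 CPM at 0 h, in C57BL6/J livers. The groups overlapped in both strains, and the 14.6 CPM belongs to the liver with 941 CPM of kidney markers. The fitted log2 fold change was 1.76 ± 0.56 (SE; adjusted p = 0.0106), with 6 of 10 livers on that side, and 0.87 (adjusted p = 0.18) without the livers with kidney markers.

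Of the sulfotransferases, Sult1d1 and Sult1e1 were lower after feeding. Sult1d1 had 242, 151, 129, 204 and 88.1 CPM at 12 h, against 714, 422, 206, 249.1 and 365 CPM at 0 h, in BALB/c livers. It had 159, 196, 117, 136 and 273 CPM at 12 h, against 402, 223, 91.0, 220.4 and 279 CPM at 0 h, in C57BL6/J livers. The ranges overlapped. As a log2 fold change this was -0.77 ± 0.23 (SE; adjusted p = 0.00509) at 6 h and -0.87 ± 0.23 (SE; adjusted p = 0.00282) at 12 h, and -0.61 (adjusted p = 0.037) and -0.70 (adjusted p = 0.0198) without replicate 1 of BALB/c at 0 h. Each call held in 16 of 17 alternatives and ended without replicate 1 of every group (adjusted p = 0.218 at 6 h and 0.0803 at 12 h by edgeR). Sult1a1, the most abundant, had log2 fold changes of -0.13 ± 0.14, 0.21 ± 0.14 and 0.12 ± 0.14 (SE) at 3, 6 and 12 h and was not called.

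Sult1e1, which inactivates oestrogens, was a low gene in these male livers. It had 0.259, 0.300, 0.265, 0.399 and 0.169 CPM at 6 h, against 11.2, 0.971, 0.724, 1.15 and 0.570 CPM at 0 h, in BALB/c livers. It had 0.754, 0.915, 0.0998, 0.252 and 0.170 CPM at 6 h, against 1.83, 0.586, 0.346, 0.580 and 1.37 CPM at 0 h, in C57BL6/J livers. One liver, replicate 1 of BALB/c at 0 h, stood far above the rest. Sult1e1 differed by -2.21 ± 0.55 (SE; adjusted p = 0.00104) at 3 h, -2.22 ± 0.55 (SE; adjusted p = 0.000901) at 6 h and -2.32 ± 0.56 (SE; adjusted p = 0.00102) at 12 h. Without that liver it was -1.33 (adjusted p = 0.0602), -1.33 (adjusted p = 0.0566) and -1.44 (adjusted p = 0.0516), so no call remained. The calls held in 15, 15 and 16 of 17 alternatives at 3, 6 and 12 h. Among these was the fit without both 0 h livers that stood apart, which also leaves out that liver. Sult4a1, a brain gene with no known activity of its own, was called higher at 3 and 6 h at a mean below 1 CPM. Its 3 h call held in 7 of 16 alternatives, and it gave 2.23 (adjusted p = 0.0525) at 3 h without replicate 1 of BALB/c at 0 h, against 2.36 ± 0.87 (SE; adjusted p = 0.0348) with it.

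**Figure D4:**
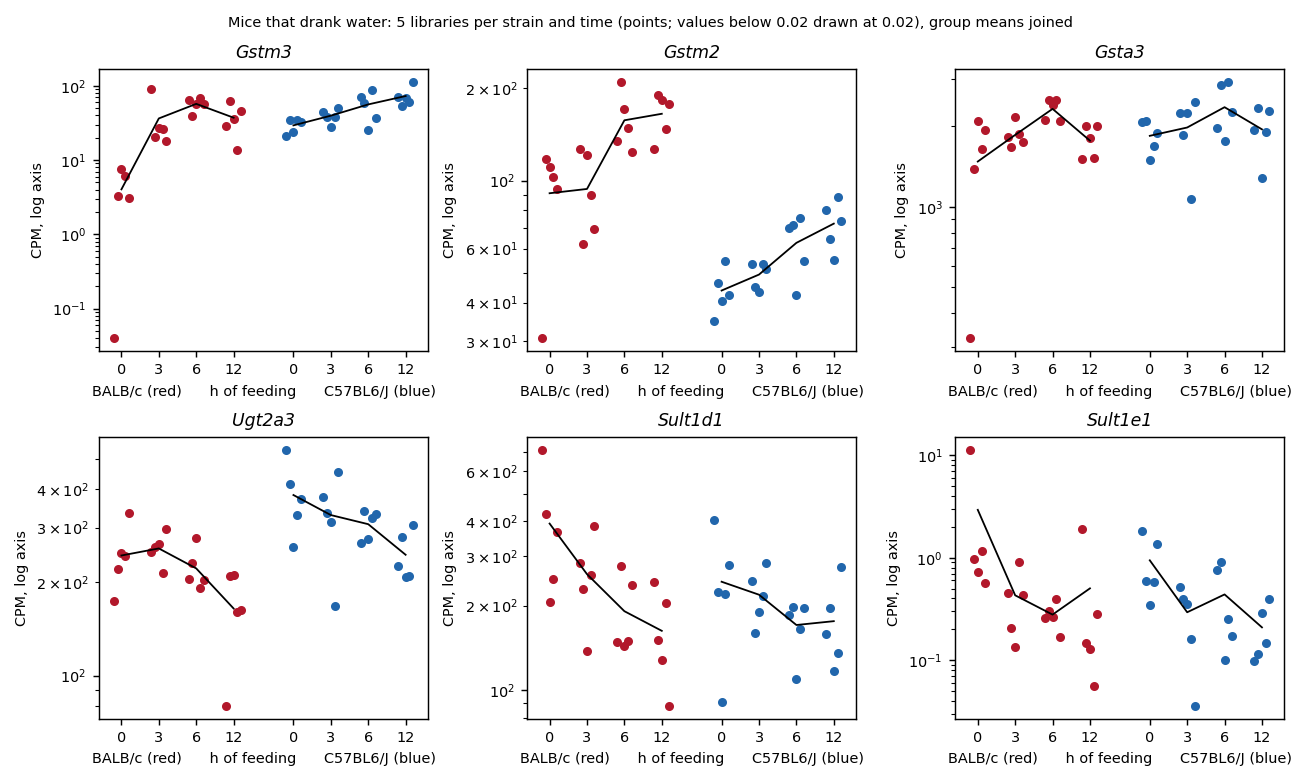
CPM (log axis) of Gstm3, Gstm2, Gsta3, Ugt2a3, Sult1d1 and Sult1e1 in livers of mice that drank water, 5 per strain and time, with group means joined by lines and BALB/c left of C57BL6/J. Gstm3 is at most 7.60 CPM in BALB/c at 0 h, and a single BALB/c liver at 0 h, of 11.2 CPM, sets the Sult1e1 mean there.

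The times after feeding were also set against each other over all 4 drinks and both strains, which leaves out the 0 h livers. Most mu-class Gst genes were higher at 12 h than at 3 h, and the Ugt genes called were mostly lower. At 12 h against 3 h the test called 6 higher and 3 lower of 17 Gst members, 1 higher and 8 lower of 19 Ugt members and 0 higher and 2 lower of 9 Sult members, in sum 20 of 45 members. Of all genes tested 54.2% were called, 27.4% higher and 26.8% lower. The 6 Gst members called higher were 6 of the 7 mu-class genes. The class medians were 0.04 for Gst, -0.20 for Ugt and -0.12 for Sult, beside 0.00 for all genes tested.

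Summed markers of muscle, red cells and pericentral hepatocytes had lower medians at 12 h. Skeletal muscle markers (10 genes, all read) summed to 0.958, 2.23 and 117 CPM (lowest, median and highest) in the 38 livers at 12 h, against 0.492, 106 and 527 CPM in the 40 livers at 3 h. Pericentral hepatocyte markers summed to 3696, 7071 and 9939 CPM at 12 h, against 6176, 9452 and 11726 CPM at 3 h, and red cell markers to 103, 304 and 587 CPM at 12 h, against 169, 539 and 1683 CPM at 3 h. Each pair of ranges overlapped, and the part of these cells in the differences was not tested.

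Gstm4 led the mu class, with 31.5, 50.4 and 88.7 CPM (lowest, median and highest) in the 38 livers at 12 h, against 15.6, 23.6 and 41.7 CPM in the 40 livers at 3 h. It was higher in 37 of 38 livers than the 3 h mean of the same strain and drink. In the test the log2 fold change was 1.02 ± 0.08 (SE; adjusted p = 8.15e-21). Gstm7 had 34.4, 58.2 and 99.1 CPM (lowest, median and highest) in the 38 livers at 12 h, against 23.0, 41.1 and 67.4 CPM in the 40 livers at 3 h, and differed by 0.54 ± 0.05 (SE; adjusted p = 1.11e-15). Gstm2, Gstm3, Gstm6 and Gstm1 differed by 0.53, 0.50, 0.34 and 0.21. The ranges of Gstm4 and of Gstm7 overlapped between the times.

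Outside the mu class, Gstt2 had 43.6, 88.4 and 199 CPM (lowest, median and highest) in the 38 livers at 12 h, against 83.2, 125 and 239 CPM in the 40 livers at 3 h. It differed by -0.58 ± 0.08 (SE; adjusted p = 2.69e-09). Gstp2 had 0.952, 3.87 and 24.6 CPM (lowest, median and highest) in the 38 livers at 12 h, against 0.581, 8.61 and 43.4 CPM in the 40 livers at 3 h, and differed by -0.92 ± 0.22 (SE; adjusted p = 0.000182). Both ranges overlapped, and the Gstp2 values spread widely at each time. Gstt3 differed by -0.26 ± 0.10 (SE), a call that held in 10 of 14 alternatives.

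Among Ugt genes, Ugt2b34 had 141, 320.1 and 554 CPM (lowest, median and highest) in the 38 livers at 12 h, against 287, 524 and 747 CPM in the 40 livers at 3 h. It was lower in 36 of 38 livers than the matched 3 h mean. The fold change on the log2 scale was -0.61 ± 0.09 (SE; adjusted p = 1.36e-09). Ugt2a3 had 80.0, 209 and 371 CPM (lowest, median and highest) in the 38 livers at 12 h, against 160.1, 264 and 507 CPM in the 40 livers at 3 h, and differed by -0.44 ± 0.08 (SE; adjusted p = 3.71e-06). Ugt2b38 differed by -0.83 ± 0.29 (SE; adjusted p = 0.0106) and Ugt1a1, the bilirubin enzyme, by -0.47 ± 0.18 (SE; adjusted p = 0.0197). The call of Ugt1a1 held in 11 of 14 alternatives, with values from -0.69 to -0.16, and ended without replicate 1, 3 or 5 of every group. That of Ugt2b38 held in 12 of 14. The ranges of Ugt2b34 and Ugt2a3 overlapped between the times. The remaining lower calls, Ugt1a8, Ugt1a10, Ugt1a2 and Ugt1a7c, averaged under 1 CPM and share exons. Ugt2b35 was the one Ugt member called higher, by 0.47 ± 0.18 (SE; adjusted p = 0.0201), with 20 of 38 livers on that side, and it gave 0.02 (adjusted p = 0.978) without the libraries with a name suffix.

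Sult1d1 had 50.9, 122 and 273 CPM (lowest, median and highest) in the 38 livers at 12 h, against 138, 228 and 404 CPM in the 40 livers at 3 h. The ranges overlapped, with 36 of 38 livers at 12 h below the matched 3 h mean. On the log2 scale the difference was -0.90 ± 0.12 (SE; adjusted p = 3.66e-11). Sult1e1, under 1 CPM, differed by -1.31 ± 0.30 (SE). At 6 h against 3 h the test called 5 higher and 0 lower of 17 Gst members, 0 higher and 3 lower of 19 Ugt members and 1 higher and 2 lower of 9 Sult members, in sum 11 of 45 members, where 29.2% of all genes tested were called. All 5 Gst calls were mu-class genes (Gstm2, Gstm3, Gstm4, Gstm5 and Gstm7), between 0.28 and 0.50 on the log2 scale. The Ugt calls were Ugt1a1, Ugt2a3 and Ugt2b34, held in 9 of 14, 14 of 14 and 3 of 14 alternatives in that order, and the Ugt2b34 call ended with DESeq2 and without the livers with kidney markers. Without the libraries with a name suffix 5 members were called in this comparison, and the share of all genes called there is not given here.

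**Figure D5:**
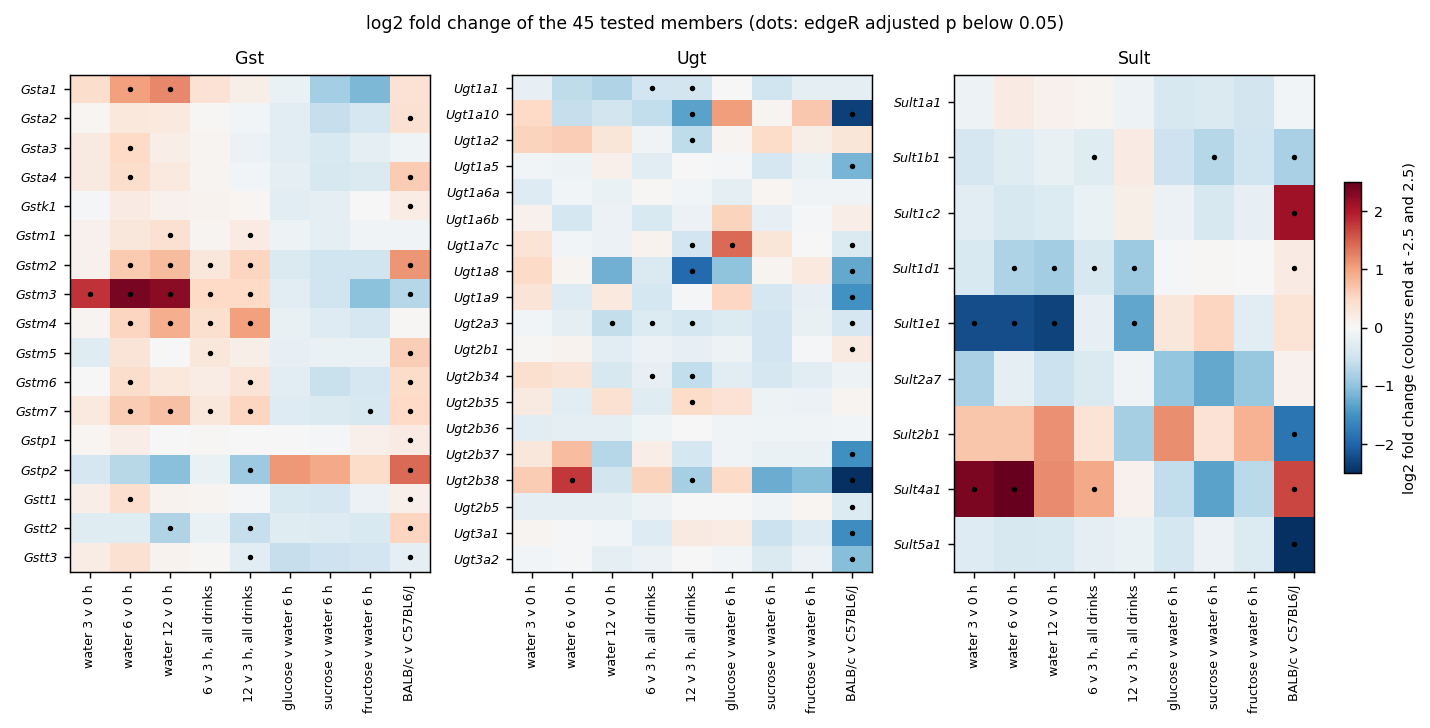
log2 fold change of the 45 tested members (rows) in 9 comparisons (columns), by class, with dots at calls. The mu-class rows are mostly red in the feeding and time columns, and the Ugt rows are mostly blue in the strain column, while the sugar columns are nearly free of dots. The 3 water columns share the 0 h livers.

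The drinks were then compared at each time, as the mean over both strains of sugar minus water. Few members were called. At 3 h glucose called 0 of 45 members (background 0.190% of all genes tested), sucrose 1 (2.92%) and fructose 0 (6.71%). At 6 h glucose called 1 (0.906%), sucrose 1 (1.14%) and fructose 1 (1.23%). At 12 h none of glucose (0.0651%), sucrose (0.00592%) and fructose (0.00592%) called a member. At an unadjusted p below 0.05, glucose had 2, 11 and 7 members at 3, 6 and 12 h, where 5.32, 13.8 and 5.34% of all genes tested had one. Sucrose had 4, 20 and 8 members, where 13.2, 14.9 and 4.35% of all genes did. Fructose had 3, 12 and 8 members, where 17.6, 11.4 and 4.23% of all genes did. Comparisons at the same time share the water livers.

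Gstm7 was called in 2 of these comparisons. At 3 h it had 48.7, 45.9, 38.9, 32.6 and 49.6 CPM with sucrose, against 45.8, 47.0, 63.0, 57.7 and 46.9 CPM with water, in BALB/c livers. It had 34.1, 23.0, 36.1, 27.3 and 29.2 CPM with sucrose, against 41.7, 37.2, 50.05, 37.1 and 38.8 CPM with water, in C57BL6/J livers. The C57BL6/J groups did not overlap, and the BALB/c groups did. The log2 fold change for sucrose over water at 3 h was -0.36 ± 0.11 (SE; adjusted p = 0.0429), with 10 of 10 livers on that side. At 6 h Gstm7 had 63.3, 57.9, 53.4, 74.7 and 39.3 CPM with fructose, against 67.7, 84.3, 82.9, 76.1 and 62.6 CPM with water, in BALB/c livers. It had 35.6, 37.3, 36.1, 39.3 and 35.7 CPM with fructose, against 53.2, 52.2, 44.7, 52.6 and 43.8 CPM with water, in C57BL6/J livers. Here too the C57BL6/J groups stood clear and the BALB/c groups overlapped. The log2 fold change for fructose over water at 6 h was -0.40 ± 0.11 (SE; adjusted p = 0.0352). Without the libraries with a name suffix these were -0.44 (adjusted p = 0.19) for sucrose and -0.36 (adjusted p = 0.493) for fructose.

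Sult1b1 was lower with sucrose at 6 h. It had 5.22, 10.8, 7.59, 9.28 and 7.64 CPM with sucrose, against 9.08, 14.0, 15.0, 8.35 and 10.8 CPM with water, in BALB/c livers. It had 16.9, 9.94, 14.5, 9.74 and 12.8 CPM with sucrose, against 21.3, 30.6, 18.9, 28.7 and 23.8 CPM with water, in C57BL6/J livers. The C57BL6/J groups did not overlap. The fitted log2 fold change was -0.72 ± 0.18 (SE; adjusted p = 0.0244), and -0.69 (adjusted p = 0.104) without the libraries with a name suffix. Ugt1a7c was called higher with glucose at 6 h. It had 0.947, 0.653, 5.73, 0.482 and 0.230 CPM with glucose, against 1.67, 0.413, 0.485, 0.439 and 0.296 CPM with water, in BALB/c livers. It had 0.641, 0.663, 0.686, 0.890 and 4.71 CPM with glucose, against 0.198, 0.114, 0.699, 0.707 and 0.810 CPM with water, in C57BL6/J livers. One liver in each glucose group stood far above the others, and the BALB/c one is the liver with 1557 CPM of kidney markers. Ugt1a7c differed by 1.42 ± 0.39 (SE; adjusted p = 0.0468), and 1.03 (adjusted p = 0.188) without the livers with kidney markers.

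At 6 h the median log2 fold change of the 17 tested Gst members was -0.27 for glucose, -0.37 for sucrose and -0.38 for fructose over water, with the same water livers in all 3. Gstp1, the most abundant, had log2 fold changes of 0.02 ± 0.20, -0.02 ± 0.20 and 0.12 ± 0.20 (SE) for the 3 sugars, and was not called. Fructose and glucose differed in 0 of 45 members at 3 h (2.35% of all genes tested), at 6 h (0.255%) and at 12 h (0%), with 2, 5 and 0 members at an unadjusted p below 0.05 by the same edgeR test, beside 12.7, 10.4 and 2.40% of all genes. A joint edgeR test of strain by drink called 0 of 45 members, where 0.0415% of all genes tested were called, and 3 members had an unadjusted p below 0.05, as had 3.00% of all genes.

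The genes that supply the cofactors were read beside the enzymes, on water at 6 h against 0 h, where 28.8% of all genes tested were called, 13.9% higher and 14.9% lower. For glutathione supply the test called 6 higher and 2 lower of 11 genes, with a median log2 fold change of 0.27. Chac1, which breaks glutathione down, fell by 3.65 ± 0.43 on the log2 scale (SE), and Gsr, which recycles oxidised glutathione, rose by 0.50 ± 0.10. Gclc, the catalytic subunit of the first step of glutathione synthesis, rose by 0.56 ± 0.14. For sulphate and PAPS supply it called 3 higher and 1 lower of 9 genes, with a median of 0.12, and Papss1, a PAPS synthase, rose by 1.62 ± 0.18 (SE; adjusted p = 1.04e-12). For UDP-glucuronic acid supply it called 4 higher and 1 lower of 7 genes, with a median of 0.60. Ugdh, the enzyme that makes UDP-glucuronic acid, rose by 0.60 ± 0.13 (SE; adjusted p = 0.000155).

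Regulators of drug metabolism were mostly lower at 6 h, with 1 higher and 10 lower of 19 called and a median of -0.49. Dbp, a clock-controlled activator of detoxification genes, fell by 4.00 ± 0.34 on the log2 scale (SE). Por, the electron donor of the cytochromes P450, fell by 2.46 ± 0.25, and Nr1i3, the receptor CAR, by 0.97 ± 0.15. Of NRF2 targets outside the members 4 higher and 1 lower of 15 were called, and of CAR and PXR targets 2 higher and 2 lower of 10. Of other glutathione transferases 2 higher and 0 lower of 9 were called, and of other conjugating and deconjugating enzymes 3 higher and 2 lower of 16. The medians of these 4 lists were 0.08, 0.10, 0.11 and -0.02, beside 0.00 for all genes tested. Some genes sit in 2 lists.

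At 12 h against 3 h, where 54.2% of all genes tested were called, the counts were 5 higher and 2 lower of 11 for glutathione supply, 2 higher and 4 lower of 9 for PAPS supply, 1 higher and 3 lower of 7 for UDP-glucuronic acid supply and 4 higher and 12 lower of 19 for the regulators. Stat5b, which carries the growth hormone signal, differed by 0.98 ± 0.05 (SE; adjusted p = 9.47e-34) and Dbp by -1.88 ± 0.17 (SE; adjusted p = 1.17e-17). Between strains, where 55.3% of all genes tested were called, the counts, BALB/c over C57BL6/J, were 3 higher and 2 lower of 11, 2 higher and 0 lower of 9, 3 higher and 4 lower of 7 and 3 higher and 9 lower of 19, in the same order of lists. Ugdh differed by 0.86 ± 0.05 (SE; adjusted p = 5.77e-30), Ahr, the dioxin receptor, by -0.66 ± 0.06 (SE), and Nfe2l2, which encodes NRF2, by -0.37 ± 0.05. Of CAR and PXR targets 4 higher and 2 lower of 10 were called between strains, among them Cyp2b10, which was higher by 1.93 ± 0.17 (SE; adjusted p = 5.2e-19). The part of any of these genes in the levels of the conjugation enzymes was not tested.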

How the data were processed

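RNA of 63 BALB/c and 65 C57BL6/J mouse livers was sequenced, and the authors deposited a table of whole-number read counts per gene and a table of FPKM. Per the submitters' processing notes, CASAVA, STAR 2.5, HTSeq 0.6.1 and DESeq2 were used with the builds mm10 and GRCm38, with no role or order given. Whether counting used strand is not stated there, and reads of overlapping genes on opposite strands cannot be told apart. Reads of both strains were counted on 1 build, which comes from C57BL/6J. The deposited FPKM equal the count divided by the listed gene length and the library's total count, on the usual scale, within a tolerance of 1e-06. No column of per-library values was left unused.

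From the counts, edgeR 4.0.16 in R 4.3.3 gave TMM-scaled CPM and a quasi-likelihood fit (robust) with 1 mean for each of the 26 groups. The default filter of edgeR on low counts by group (minimum count of 10) left 16886 genes. In all, 19 contrasts and 2 joint tests of strain differences were run, each with Benjamini-Hochberg adjustment over all genes tested and a threshold of 0.05. DESeq2 1.42.0 was an alternative, as were another normalisation, no filter, a name suffix as a covariate or left out, a replicate block, and leaving out libraries. The joint tests were not run with DESeq2. Self-tests were run on simulated counts with changes of at least 2-fold put in, and the share recovered is not given here. The simulation drew each library independently, so it does not cover livers that stand apart, variation shared by replicate number or smaller changes. Within groups no 2 libraries held the same counts, and the smallest ratio of chi-square to its degrees of freedom was 19.2. Each library was counted as a sample, although this check cannot show that libraries came from separate mice. Total counts per library (18541545 to 43118895) limit the precision for genes near 0, and all intervals and standard errors cover these livers only.

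Members were taken by name, and every member could be described. Values are given for the 4 members of each class with the highest mean FPKM and for up to 3 called members at either end of the log2 fold change in each class and comparison with a mean of at least 1 CPM. Others are named with values where a count or library turned on them. The members, gene lists and markers were chosen with earlier results of these data known, so their counts are descriptions. A library is counted as on 1 side when it lay above or below the mean of the matched group of the same strain, drink or time. Shared 100-base windows were counted between transcripts of GENCODE M21, where all 56 members were found, and 41 had the same ends. Upstream sequences are RefSeq's (GRCm38.p6), with entries for 48 members.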

Additional observations from a re-analysis of the deposited data

Results flagged for a closer look

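Pairs of a named gene and a water group of 5 libraries were screened, and sugar groups were not. In 4 of the 52 pairs a library's gap to the nearest other was beyond the critical value of Dixon's test. Chance flags about 1 in 20 groups of normal values picked without sight of them. The genes here were named partly for their values, so that rate cannot be set against these 4. Replicate 1 of the BALB/c 0 h group accounts for a pair of them: Gstm2 was 30.7 CPM there, against 93.6 to 117 CPM in the other 4, and Sult1e1 was 11.2 CPM, against 0.570 to 1.15 CPM. In BALB/c mice on water for 3 h, Gstm3 was 90.2 CPM in replicate 1, against 18.2 to 26.8 CPM in the others. In BALB/c mice on water for 6 h, Ugt2b38 was 14.6 CPM in replicate 1, against 0.113 to 1.76 CPM in the others.

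That last liver also held 941 CPM of kidney markers, which the comparisons of conjugation enzymes do not use, and replicate 3 of BALB/c glucose at 6 h held 1557 CPM, against at most 8.99 CPM elsewhere. Ugt2b38 reached 32.3 CPM and Ugt1a7c 5.73 CPM in the second of these livers. The part of kidney RNA in these values was not tested.

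The response of Gstm3 to feeding on water differed between BALB/c and C57BL6/J in a joint test (adjusted p = 0.017 by edgeR), with a larger rise in BALB/c. Its adjusted p was 0.0665 without replicate 1 of the BALB/c 0 h group and lay between 0.0114 and 0.210 over all alternatives.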

How the results depend on the processing

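Of 107 called log2 fold changes of members, 52 kept their direction and their call in every alternative run, and none reversed in any. DESeq2 ended 1 call of 106, another normalisation (RLE) 2 of 107, no filter on low counts 10, the name suffix as a covariate 2, and the 94 libraries without that suffix 25. Fits on only the libraries of the groups compared ended 14 of 102 calls, and leaving out 1 replicate number ended between 12 and 26. Alternatives chosen after seeing the data ended 11 of 72 calls without replicate 1 of BALB/c at 0 h, 10 of 72 without both 0 h livers that stood apart, 3 without the livers with kidney markers and 7 without the livers nearer to another time. Most of these alternatives also used fewer libraries, and the causes of these changes were not tested.

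Counts of members called moved as follows. The shares of all genes given above belong to the main fit, and those under each alternative are not given here. On water at 3 h, 3 members were called, and 6 with the name suffix as a covariate, 6 without both 0 h livers that stood apart, 5 without the livers nearer to another time, and 2 to 3 without 1 replicate number. On water at 6 h the 13 calls became 7 in a fit on the groups compared and 6 to 13 without 1 replicate number. At 6 h against 3 h the 11 calls became 5 without the suffix libraries and 5 to 12 without 1 replicate number. Between strains at 0 h the 15 calls became 6 in a fit on the groups compared and 11 to 17 without 1 replicate number. The strain count over all conditions (31), 12 h against 3 h (20) and water at 12 h (10) stayed within 1.5 times of these under every alternative run, at 29 to 30, 17 to 21 and 7 to 10 without 1 replicate number. The call of Gstm3 in strain by feeding time became 0 in a fit on the groups compared, without the suffix libraries, without replicate 1 of BALB/c at 0 h and without both 0 h livers, and 0 to 1 without 1 replicate number.

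Drink counts each rest on 1 gene or none. Sucrose at 3 h (1) became 3 in a fit on the groups compared and 0 with no filter or without the suffix libraries. Glucose at 6 h (1) became 2 with the suffix as a covariate and 0 with DESeq2, with no filter, in a fit on the groups compared, without the suffix libraries or without the livers with kidney markers. Sucrose at 6 h (1) became 2 with DESeq2, 4 with the suffix as a covariate, 7 in a fit on the groups compared, 3 with the replicate block and 0 without the suffix libraries. Fructose at 6 h (1) became 3 with DESeq2, 2 with the suffix as a covariate, 2 with the replicate block, 6 in a fit on the groups compared, 3 without the livers nearer to another time and 0 with no filter or without the suffix libraries. Without 1 replicate number these were 0 to 1, 0 to 1, 0 to 2 and 0 to 1. DESeq2 called 1 member for glucose and 1 for fructose at 12 h, where edgeR called 0, and the suffix covariate gave 1 for fructose over glucose at 6 h. By CPM in place of FPKM, 3 of the 4 highest Ugt members were the same.

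The labels give no pairing by replicate number. Same-numbered livers of different groups had a median correlation of 0.0829 (lowest -0.427), against -0.0224 for livers of different numbers, 45.3% of 1576 pairs lay over 0.1, and 85 livers correlated best with their own number, a hint of shared variation from the data and not from the design. The fit with the replicate block ended none of the 107 calls. Depth limits the members under 1 CPM, such as Ugt1a10, Sult1e1 and Sult4a1.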

Other observations

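Members that the tests left out had few reads. Gstt4 had a read in 58 libraries, Sult6b1 in 80, Sult2a1 in 49, Sult2a2 in 42, Ugt2a1 in 33 and Sult3a1 in 22, with 159, 220, 107, 95, 70 and 46 reads in all, in the same order. Sult2a4 had no read in any library, and Sult2a7 was the one Sult2a gene tested, with 5521 reads in 127 libraries.

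Low extremes of the members gathered in few livers. After replicate 1 of the BALB/c 0 h group (lowest of all libraries for 14 members), replicate 1 of BALB/c water at 12 h was the lowest for 5 and replicate 4 of BALB/c fructose at 6 h and replicate 2 of C57BL6/J sucrose at 6 h for 3 each. In replicate 4 of BALB/c fructose at 6 h, Gstm3 was 3.62 CPM, against 11.5 to 41.7 CPM in the other 4 livers of its group.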
